A study of Caenorhabditis elegans with 2 samples.

Results

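The binding sites described here are the ELT-2 peaks on the arms of autosomes II, III, IV and V of Caenorhabditis elegans. They were chosen by position alone: a peak of the list on assembly ce11 that passed the irreproducible discovery rate (IDR) filter, a filter on how well peaks repeat between replicates, was a member when its summit lay in the first or last 4 Mb of one of the 4 chromosomes. This gave 2179 arm summits, 23.7% of all 9198 IDR-passing peaks and 36.25% of the 6011 summits on these chromosomes. The remaining 3832 summits on them lay in the chromosome centres and served for comparison. The arms span 32 Mb and the centres 35.48 Mb. The width of 4 Mb is a fixed length and not a mapped recombination boundary.

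The peaks come from ChIP-seq of whole hermaphrodites at the L3 larval stage, collected 40 hours after they had been synchronized as L1 larvae starved after bleaching. Strain OP56 was used, with the genotype unc-119(ed3) III and the transgene wgIs56, which adds a GFP-FLAG tag at the C-terminus of ELT-2, and the tagged protein was precipitated with an antibody to GFP. Biological replicates 1 and 2 made up a single group that shares this genotype, stage and treatment, so there was no condition to compare, and every p below counts peaks within these samples and covers counting error only. The tagged protein is carried by a transgene, and whole animals were used, so a peak is a sum over all cells that contain the fusion. Read depth is unknown, as the lists give no numbers of reads.

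ELT-2 is a zinc finger transcription factor of the GATA family and the main regulator of the differentiated worm intestine, where it binds the sequence TGATAA near genes for digestion, defence and metabolism. The holocentric worm autosomes have a centre with little meiotic recombination that is rich in conserved and essential genes. Their arms recombine more, hold more repeats, and contain many of the gene families that have expanded in nematodes, such as F-box, MATH domain, C-type lectin, nuclear receptor and chemoreceptor genes.

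The sequences at 6 arm summits are shown because they span what was seen on the arms. The first is the strongest summit of all, and the next pair are leading summits with 6 TGATAA sites each. Then come the strongest summits of large family blocks on left arms: fbxa on III, math on II and nhr on V. The last of the 6 lacks the site. Stronger summits at fbxa and nhr genes lie on other arms. Each run covers the summit and 100 bases to either side in WBcel235 (the assembly also called ce11) as given by RefSeq, 5′ to 3′ on the plus strand, named after the gene whose start is nearest. Capitals mark TGATAA, which reads TTATCA where it lies on the minus strand.
F16G10.6, chrII:2378636-2378836, plus strand: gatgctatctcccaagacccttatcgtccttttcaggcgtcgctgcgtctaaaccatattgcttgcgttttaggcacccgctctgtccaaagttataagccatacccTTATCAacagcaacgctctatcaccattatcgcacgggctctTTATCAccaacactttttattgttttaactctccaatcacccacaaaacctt
srz-62, chrIV:3899924-3900124, plus strand: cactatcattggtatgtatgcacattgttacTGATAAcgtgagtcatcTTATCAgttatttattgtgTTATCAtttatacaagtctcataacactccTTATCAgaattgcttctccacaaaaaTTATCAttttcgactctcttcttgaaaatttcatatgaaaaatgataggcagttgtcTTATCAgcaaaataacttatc
clec-78, chrIV:3988737-3988937, plus strand: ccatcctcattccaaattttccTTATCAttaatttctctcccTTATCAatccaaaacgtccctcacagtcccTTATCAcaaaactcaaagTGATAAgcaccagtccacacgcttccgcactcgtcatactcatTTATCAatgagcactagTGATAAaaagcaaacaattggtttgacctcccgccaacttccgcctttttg
fbxa-59, chrIII:943629-943829, plus strand: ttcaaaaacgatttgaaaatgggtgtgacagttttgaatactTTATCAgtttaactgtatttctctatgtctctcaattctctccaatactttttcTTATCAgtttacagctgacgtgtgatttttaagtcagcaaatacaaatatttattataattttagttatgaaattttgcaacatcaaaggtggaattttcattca
math-20, chrII:1995835-1996035, plus strand: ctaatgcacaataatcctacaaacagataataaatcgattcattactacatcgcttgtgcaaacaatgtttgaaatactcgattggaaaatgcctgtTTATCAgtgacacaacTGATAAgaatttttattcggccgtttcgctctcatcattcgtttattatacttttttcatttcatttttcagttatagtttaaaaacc
nhr-256, chrV:1743567-1743767, plus strand: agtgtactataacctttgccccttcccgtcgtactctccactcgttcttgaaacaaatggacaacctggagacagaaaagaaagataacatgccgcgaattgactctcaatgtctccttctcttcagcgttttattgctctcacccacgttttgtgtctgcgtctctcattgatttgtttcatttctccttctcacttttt

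ELT-2 summits were sparser on the arms than in the centres. The arms held 68.1 summits per Mb and the centres 108, a ratio of 0.6305 (95% interval 0.598 to 0.665). By an exact two-sided binomial test against the arms' 47.4% of the length the difference had p = 1.93e-68, and 7.7e-68 after Benjamini-Hochberg adjustment over the 4 tests made. All 8 arms lay below the centre of their own chromosome, in the IDR-passing list and in an equal number of the strongest peaks of each replicate.

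The right arm of chromosome IV had the lowest density, 44 summits per Mb in the IDR-passing list, 46 in replicate 1 and 44 in replicate 2. The right arm of chromosome II had the highest, 92.5 per Mb, with 89.25 and 90.25 in the replicates. Centres ran from 99.6 per Mb on IV to 126 per Mb on II, so the arms and centres did not overlap. The left arms of II, III, IV and V held 65, 79, 63.75 and 58.25 summits per Mb, and the right arms of III and V held 83 and 59.25.

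**Figure D1:**
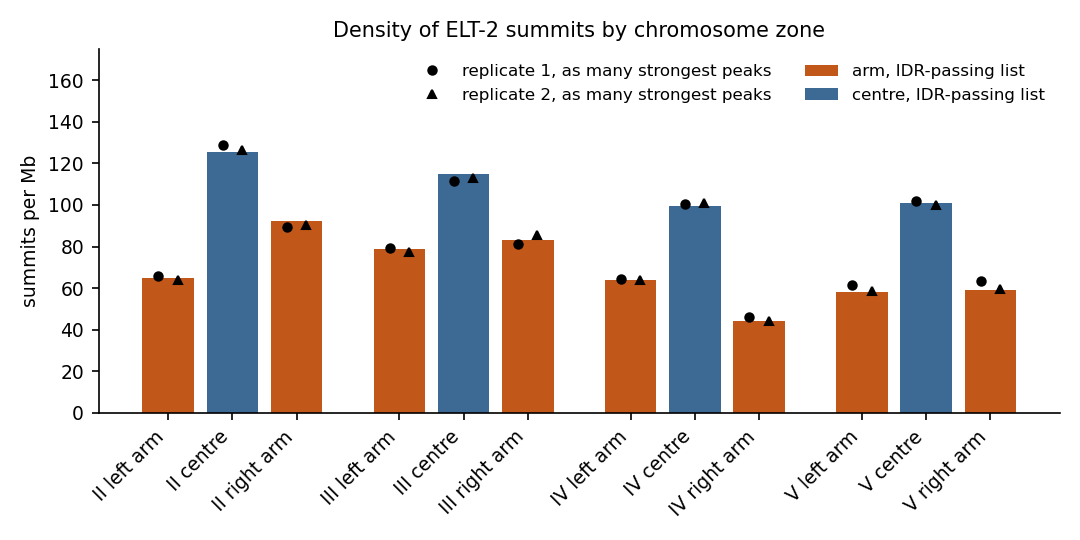
Summits per Mb (vertical axis) in the left arm, centre and right arm of chromosomes II to V. Bars give the IDR-passing list and points an equal number of the strongest peaks of each replicate; each arm bar, from 44 to 92.5, stands below the centre bar of its chromosome, and the replicate points lie close to the bars.

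Density showed no steady change along the arms and was higher beyond them. Counted in steps of 1 Mb from the chromosome ends and summed over the 8 ends, it was 65.5, 74, 63 and 69.9 summits per Mb in the 4 steps of the arms. It was 96.25 in the fifth step and 111 in the sixth, both in the centres.

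Taken as a whole, the arms also had fewer coding genes. The arms held 185 coding genes per Mb and the centres 238, and there were 36.9 summits per 100 coding genes on the arms and 45.3 in the centres. The ratio was therefore 0.8136 per coding gene (0.772 to 0.858). Among single arms the order differed: the left arm of II had 254 coding genes per Mb and 65 summits per Mb, while the left and right arms of III had 157 and 171.5 coding genes and 79 and 83 summits per Mb. Per TGATAA site, which occurs 0.947 times per kb on the arms and 1.15 times in the centres, the ratio was 0.7637 (0.724 to 0.805). Repeated sequence was more common where summits were sparser: 12.4% of arm bases and 6.70% of centre bases begin a 31-base word found more than once in the genome. Per Mb of the remaining sequence, the ratio was 0.671 (0.637 to 0.708). The part of reads that could not be placed in repeats was not tested.

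The strength of arm and centre peaks differed by less than the counting error. The signal is the authors' value for each peak against the control, on a scale of its own in each list, and its median was 207 on the arms and 203 in the centres. Of the arm summits 50.9% lay above the median of all nuclear peaks and of the centre summits 49.97%, a difference of 0.921 percentage points (95% interval -1.71 to 3.55, exact two-sided Fisher p = 0.502, adjusted 0.502). The shares of summits with a match within 100 bp in both replicate lists were 96.4% on the arms and 96.2% in the centres. All these peaks had passed the IDR filter, which selects for such matches.

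The very top of the list was an exception in its counts. Of the 10 strongest summits on the 4 chromosomes 8 lay on arms, as did 8 of the 10 strongest in replicate 1 and 7 in replicate 2. This count depends on the arm width. The summits nearest to Y37A1A.2, T24E12.13 and srz-62, which are among the 8, lay 3.574, 3.787 and 3.900 Mb from a chromosome end. Arms of 3 Mb would not hold them. The arms held 24 of the 50 strongest, 42 of the 100 strongest and 348 of the 1000 strongest, against 36.25% of all summits. These counts were not tested. Among the weaker pooled peaks on the 4 chromosomes below the strength of the IDR-passing list, 39.9% lay on arms.

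The strongest arm summit, whose sequence stands first above, lay on the left arm of II, 885 bp upstream of F16G10.6. Its signal was 9719 in the IDR-passing list, 4678 in replicate 1 and 5013 in replicate 2, and it ranked first in each. It stands far above every other arm summit and has 2 TGATAA sites. After it came a summit on the right arm of V, 3865 bp upstream of C08E8.3, with 4246 in the IDR-passing list, 2135 in replicate 1 and 2123 in replicate 2, and one on the right arm of IV, 6386 bp upstream of Y37A1A.2, with 4113, 2132 and 1990 in the same order. Both lie far from any coding start, and they carry 4 and 3 TGATAA sites.

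The other leading summits, which were chosen by their signal in the list made from both replicates, were also high in each replicate. At srz-62, a member of a chemoreceptor family, the summit 480 bp upstream had 3796 in the IDR-passing list, 2010 in replicate 1 and 1789 in replicate 2, with 6 TGATAA sites. The summit nearest to zig-13, which encodes an immunoglobulin-domain protein, lay 2364 bp downstream of that gene's start, in intergenic sequence. It was 154381 bp from the left end of III, inside the outermost Mb, with 3277, 1704 and 1576, and 5 sites. At clec-78, a C-type lectin gene on the left arm of IV, the values were 2681, 1365 and 1336, again with 6 sites. The others of the 10 strongest arm summits lay near C52E2.3 (3455), fbxc-29 (3166), T24E12.13 (3138) and ltah-1.2 (2853), and each of the 10 had at least 1 site.

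The strongest summits of the remaining arms were weaker. They lay 183 bp upstream of the cyclin D gene cyd-1 on the right arm of II (2443), 277 bp upstream of Y48A6B.7 on the right arm of III (2218) and 4606 bp upstream of irld-15 on the left arm of V (1794). For comparison, the strongest centre summits of II, III, IV and V lay near ampd-1, which encodes AMP deaminase (3115), dlc-1, a dynein light chain gene (1973), pkg-2 (2426) and B0507.3 (2913). On each of the 4 chromosomes the strongest arm summit had a higher signal than the strongest centre summit. On IV this depends on the arm width. Its strongest arm summit, near Y37A1A.2 (4113), lay 3.574 Mb from the chromosome end and would be a centre summit with arms of 3 Mb.

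TGATAA was found somewhat more often at arm summits than at centre summits, although it is rarer in arm sequence. It lay within 100 bp of 1245 of 2179 arm summits (57.1%, 95% interval 55.0 to 59.2) and of 2043 of 3832 centre summits (53.3%, 51.7 to 54.9). The difference was 3.82 percentage points (1.21 to 6.42, exact two-sided Fisher p = 0.00428, adjusted 0.00857). Windows of the same length centred 500 bp to either side held it at 16.5% on the arms and 19.3% in the centres. Of all positions of the zone, taken on both strands with windows of the same length, 16.2% of the arms' and 19.4% of the centres' hold it.

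This difference depended on how it was measured. The adjusted exact p was 0.126 in the strongest peaks of replicate 2 alone, 0.0542 without chromosome II, 0.0525 with arms of 5 Mb, 0.2 with each chromosome cut into 3 equal parts, and 0.502 with a window of 200 bp. It was also 0.502 with the looser motif WGATAR, found at 70.6% of arm and 69.6% of centre summits. With both arms of a chromosome pooled, the share was higher than in the centre on II (57.3% against 52.4%), III (52.5% against 44.2%), IV (57.3% against 55.4%) and V (63.2% against 57.1%). Of the 8 single arms, 5 had a higher share than their own centre.

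The right arm of V stood highest, with 166 of 237 summits (70.04%, interval 63.8 to 75.8), against 57.1% in the centre of V. The left arm of II had 66.5% against 52.4%. The right arm of III was lowest with 49.1%, still above the 44.2% of its centre. The right arm of II (50.8%), the left arm of IV (54.1%) and the left arm of V (56.2%) lay below their centres.

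Both zones had the site more often at stronger peaks, and the arms lay above the centres in 8 of 10 bins of equal size by signal. In the strongest bin it was present at 85.5% on the arms and 78.2% in the centres, and in the weakest bin, where the arms were not higher, at 32% and 34.3%. With the bins weighted alike, the shares were 56.97% and 53.35%. Arm summits also had 2 or more sites more often, at 28.7% against 24.1%.

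**Figure D2:**
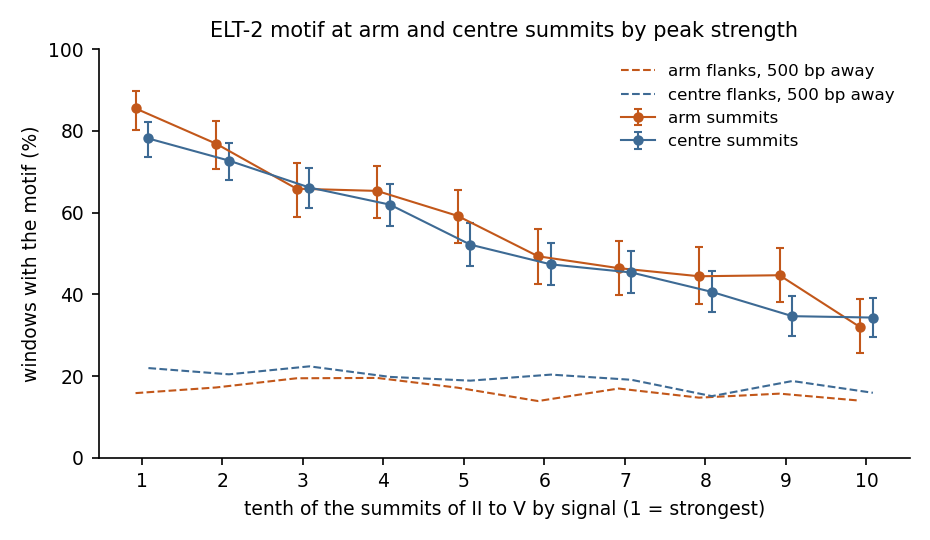
Share of windows of 100 bp to either side of a summit with the ELT-2 motif (vertical axis, %) by bin of the summits of II to V ranked by signal (horizontal axis, 10 bins, 1 strongest), with 95% exact intervals; dashed lines give windows 500 bp away. The share falls from 85.5% and 78.2% in the strongest bin to 32% and 34.3% in the weakest, and the arm points lie above the centre points in 8 of 10 bins.

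By class, the shares were farther apart in promoter windows and exons than elsewhere. Within promoter windows, defined as 1000 bp upstream to 500 bp downstream of a coding transcript start, 56.3% of arm summits and 50.3% of centre summits had TGATAA. In intergenic sequence the shares were 59.07% and 59.12%, and in introns 57.3% and 58.9%. In exons, with 77 arm summits, they were 58.4% and 51.5%. These shares by class were not tested.

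The bases beside the site were also counted, a measure chosen after the sequences were seen. TGATAA preceded by AC, that is ACTGATAA on either strand, made up 509 of the 2094 sites within 100 bp of arm summits (24.3%, interval 22.5 to 26.2) and 619 of 3210 at centre summits (19.3%, 17.9 to 20.7). Over all TGATAA sites of each zone, bound or not, it was 8.74% on the arms and 7.42% in the centres. The longer form thus made up a larger share of sites at summits than of all sites in both zones.

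The share of summits at promoters differed between the zones by less than the counting error, although promoters cover less of the arms. Promoter windows took 60.1% of arm summits and 61.1% of centre summits, a difference of -0.972 percentage points (95% interval -3.55 to 1.59, exact two-sided Fisher p = 0.458, adjusted 0.502). They cover 29.99% of arm bases and 36.85% of centre bases, so the share of summits was 2.005 times that of the bases on the arms and 1.66 times in the centres. Within 200 bp of a coding start the corresponding ratios were 3.501 and 2.68. The promoter difference passed the threshold with 3 equal parts (-4.11 points, adjusted exact p = 0.0025) and with windows reaching 2000 bp upstream (-2.52 points, 0.0483).

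Introns cover 28.1% of the arms and 18.6% of the centres, yet held 12.6% and 12.8% of the summits. Exons held 3.53% of arm and 5.22% of centre summits, and intergenic sequence 23.8% and 20.9%. The median distance to the nearest coding start was 532 bp on the arms and 483.5 bp in the centres. Summits over 5 kb from any start were few, 93 on the arms (4.27%) and 105 in the centres (2.74%), where 11.3% and 5.53% of bases lie that far away. The summit shares beyond that distance were therefore lower than the base shares in both zones.

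**Figure D3:**
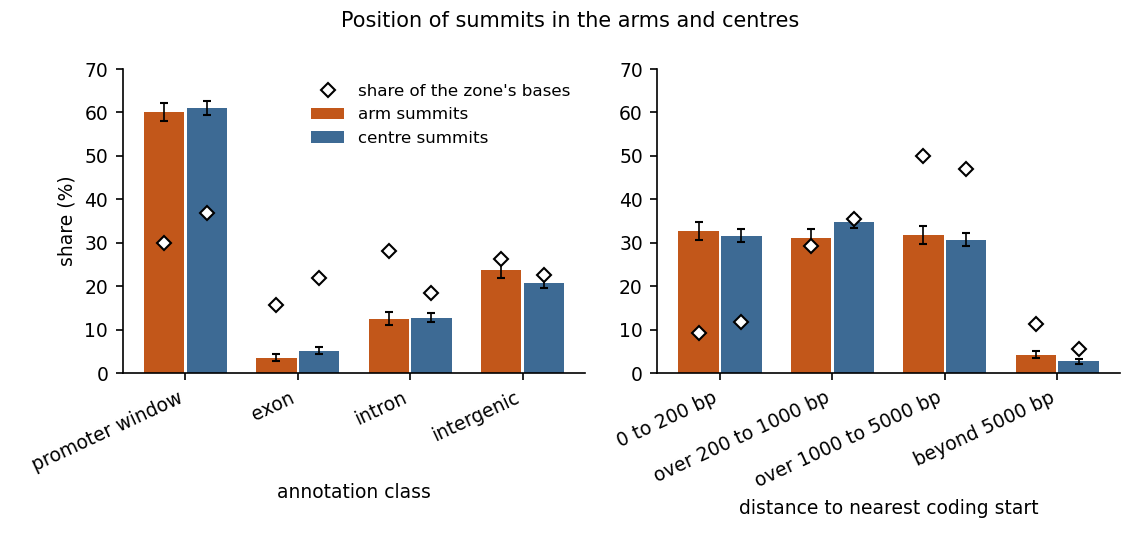
Share of summits (bars, %, with 95% exact intervals) in each annotation class and at each distance from the nearest coding start, on arms and in centres; diamonds give the share of the zone's bases. The bars of arms and centres are close in promoter windows (60.1% and 61.1%), while the diamonds differ (29.99% and 36.85%).

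A gene was called bound when a summit lay in its promoter window. On the arms 1391 of 5909 coding genes were bound, which is 23.5%, and in the centres 2379 of 8455, which is 28.1%, a difference of -4.6 percentage points (95% interval -6.04 to -3.15). These shares are the background for every family below. The bound share ran from 18.3% on the left arm of II to 30.2% on the right arm of III. Genes with a gene name were bound at 27.5% on the arms, and genes known only by a sequence name at 18.9%. In the centres these shares were 32.4% and 22.7%, so the arms were lower in both classes.

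Among intestinal genes on the arms, the lists for digestion and defence had the highest bound shares. Of 5 arm genes for intestinal structure and transport, act-5, the actin of the microvilli, eps-8, which binds actin in the brush border, and vha-6, a subunit of the apical proton pump, were bound, and kvs-4 was not. The 95% interval of this share, 14.7 to 94.7%, holds the background, and in the centres 6 of 7 such genes were bound. The esterase gene ges-1, a classical marker of the gut lineage, was counted as unbound although a summit lay 1132 bp upstream, outside the window, with a signal of 325.5. The act-5 summit, 236 bp upstream on the right arm of III, had 1122 in the IDR-passing list, 493 in replicate 1 and 634.5 in replicate 2, with 2 TGATAA sites.

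Digestive enzymes on the arms were bound in 6 of 7 cases: the aspartic protease genes asp-1 and asp-8, the cathepsin B-like genes cpr-5 and cpr-8, and the lipase genes lipl-3 and lipl-5, but not asp-17. In the centres 10 of 15 were bound. The strongest was asp-1 on the right arm of V, with 1260, 537 and 718 in the same order and 2 sites. Of 16 arm genes for innate immunity 12 were bound, and all 12 distinct summits had TGATAA. In the centres 21 of 27 were bound. The bound arm genes included lys-7, a lysozyme gene, and spp-1, which encodes a saposin-like protein. Most of the 12 were C-type lectin genes: clec-4, clec-63, clec-65, clec-66, clec-67, clec-71 and clec-85. The genes clec-82, ilys-2, ilys-3 and irg-1 were not bound. The lectin genes of this list are a selection, as 38 of all 113 arm lectin genes were bound. The strongest summit of this list lay 164 bp upstream of clec-63, a C-type lectin gene (1014).

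In lipid metabolism 8 of 12 arm genes were bound, including sbp-1, the worm SREBP, pod-2, which encodes acetyl-CoA carboxylase, the elongase gene elo-2 and the peroxisomal thiolase gene daf-22. The strongest summit counted to this list (2407) lay 895 bp upstream of the acyltransferase gene dgat-2 but closer to the F-box gene fbxa-108. In the centres 18 of 26 lipid genes were bound. Of 6 genes for metal and xenobiotic responses 3 were bound: pcs-1, which encodes phytochelatin synthase, the zinc transporter gene ttm-1, and the metal transporter gene smf-3 (1384, 100 bp upstream, 3 sites), and 17 of 21 in the centres. These shares rest on few genes and were not tested.

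Each list of marker genes for other tissues held at most 11 genes on the arms. None of 8 neuronal genes, among them unc-17, unc-25 and osm-3, none of 11 cuticle and moulting genes and not pie-1, the single arm gene of the germline list, had a summit. The 95% intervals reach 36.9% for the neuronal, 28.5% for the cuticle and 97.5% for the germline list, so each holds the 23.5% of all arm genes. In the centres 4 of 20 neuronal, 6 of 28 germline and none of 15 cuticle genes were bound. Of 6 body wall muscle genes on the arms, pat-4, unc-52 and unc-60 were bound by 4 summits with signals up to 240, and none had TGATAA. Replicate 1 listed no summit within 100 bp of the one at unc-60. The gene unc-119 on the right arm of III, which is mutated in this strain, had no IDR-passing summit within 53.6 kb, and replicate 1 alone listed a weak one 440 bp upstream (11.5).

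The expanded gene families of the arms were bound unevenly. F-box proteins carry the substrates of SCF ubiquitin ligases, and of the 3 F-box families fbxa had the highest bound share. Of 115 fbxa genes on the arms 55 were bound (47.8%, 95% interval 38.4 to 57.3), of 45 fbxc genes 6 (13.3%, 5.05 to 26.8), and of 80 fbxb genes 4 (5%, 1.38 to 12.3), against 23.5% of all arm genes. The intervals of fbxc and fbxb overlap, and that of fbxc holds the background. In the centres 8 of 35 fbxa genes were bound, and the other F-box families had 3 and 11 genes there, none of them bound.

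The fbxa genes were bound most in a block on the left arm of III, where 33 of 55 genes spread over 2.31 Mb had a summit (60%, interval 45.9 to 73.0). The bound genes shared 29 distinct summits, and 28 of these lay upstream of the start, at a median of 140 bp. Promoter windows reach farther upstream than downstream, and 72.2% of all arm summits lay upstream of the nearest start. All 29 had a match in both replicates, as had 96.4% of all arm summits. Of the 29 summits, 26 had TGATAA (89.7%), and 5 touched a repeated 31-base word, while 89.4% of all arm summits touched none. The strongest, at fbxa-59, had 586 in the IDR-passing list, 273 in replicate 1 and 315 in replicate 2. On the right arm of V 10 of 33 fbxa genes were bound.

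On the left arm of II, genes of related protein classes lie side by side and differed. Of 35 math genes, which encode MATH domain proteins, 20 were bound (57.1%, interval 39.4 to 73.7), by 24 distinct summits of which 23 had TGATAA and 23 lay upstream. Among all arm summits 72.2% lay upstream. Of 23 bath genes, whose products join a MATH to a BTB domain and act as adaptors of CUL-3 ubiquitin ligases, 3 were bound (interval 2.78 to 33.6). In the centres 5 of 8 bath genes were bound. Of 55 fbxb genes on the same arm 1 was bound (interval 0.046 to 9.72), and of 32 fbxc genes 5 (5.28 to 32.8). Of all coding genes on this arm 18.3% were bound, a share that the bath and fbxc intervals hold. The median signal of the math summits was 204, near the median of all arm summits, and 8 of the 24 touched a repeated 31-base word. Among all arm summits 89.4% touched none. The strongest lay 602 bp upstream of math-20, with 516.5, 247.5 and 267.

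C-type lectins, secreted or membrane proteins many of which respond to infection, were bound at 38 of 113 arm genes (33.6%, interval 25.01 to 43.1) and 24 of 88 centre genes (27.3%). The counts varied between arms. On the left arm of IV 17 of 27 had a summit (interval 42.4 to 80.6), against 27.1% of all coding genes there. On the right arm of II 7 of 11 had a summit (30.8 to 89.1), against 30.1%. Both intervals lie above the share of their arm. On the right arm of IV none of 11 had a summit, with an interval up to 28.5%. On the left arm of II 3 of 23 had a summit (2.78 to 33.6). These intervals hold the 19.1% and 18.3% of all coding genes on those arms. Of the 40 distinct arm summits at these genes 38 had TGATAA, and 18 of 25 in the centres did. The 18 summits on the left arm of IV ran from 77.4 to 2681 in signal, at a median of 126 bp from the start.

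Nuclear hormone receptor genes, of which worms have an unusually large set, were bound at 43 of 107 arm genes (40.2%, interval 30.8 to 50.1) and 46 of 116 centre genes (39.7%). The left arm of V held most of them, with 32 of 69 bound by 35 distinct summits. Only 12 of these had TGATAA (34.3%, interval 19.1 to 52.2), although 24 had the looser WGATAR, and 28 of the 35 lay within 200 bp of the start. In the centres 30 of 56 distinct nhr summits had TGATAA. The strongest of the 35 on the left arm of V, just upstream of nhr-256, had no TGATAA. Its signal was 810 in the IDR-passing list, 348 in replicate 1 and 473 in replicate 2. On the left arm of II the summits at nhr-88 (1012) and nhr-119 (1000) were stronger, each with 2 TGATAA sites. All but 1 of the 35 summits on the left arm of V had a match in both replicates, as had 96.4% of all arm summits.

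Leaving out weaker peaks can only lower a bound share or keep it, so the family shares are set beside that of all arm genes. The fbxb share stayed at 5%. With peaks at or above the median signal, 13.2% of all arm genes were bound, and the shares were 32.2% for fbxa (95% interval 23.8 to 41.5), 31.4% for math (16.85 to 49.3) and 24.8% for clec (17.1 to 33.8). For nhr it was 19.6% (12.6 to 28.4), an interval that then holds the background.

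The blocks differed in the site. Over the arms as a whole, 41 of 51 distinct summits at fbxa genes had TGATAA (80.4%, interval 66.9 to 90.2), 23 of 24 at math genes (95.8%, 78.9 to 99.9) and 38 of 40 at C-type lectin genes (95%, 83.1 to 99.4), but 19 of 48 at nuclear receptor genes (39.6%, 25.8 to 54.7). All arm summits in promoter windows had it at 56.3%. The intervals of the first 3 families do not reach that of the receptors, and genes that share a summit or a duplicated promoter are not independent of each other.

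**Figure D4:**
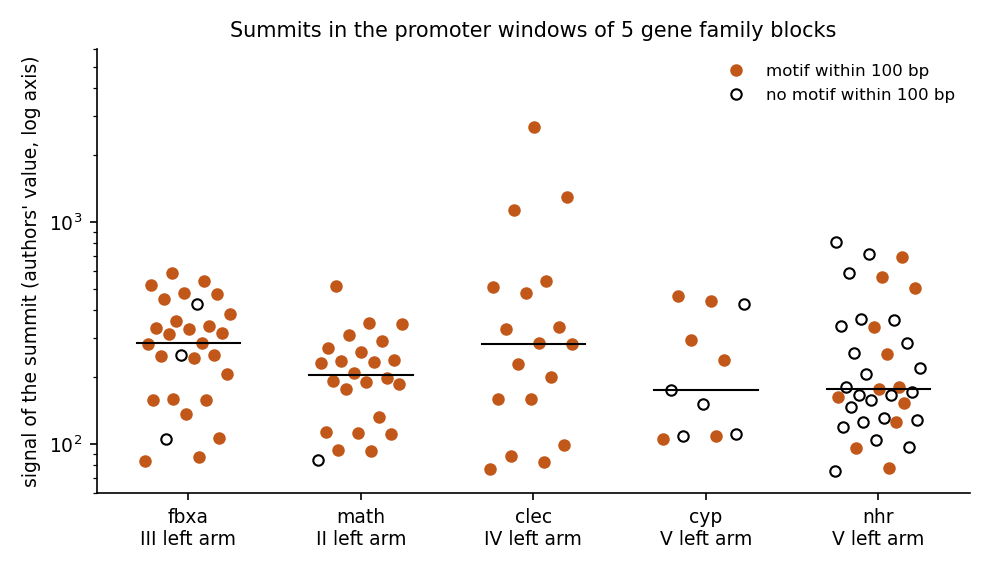
Signal of each distinct summit (vertical log axis, authors' value) in the promoter windows of 5 family blocks on arms, with the median as a line; filled points have the ELT-2 motif within 100 bp and open points do not. Of the nhr summits on the left arm of V 12 of 35 are filled, against 26 of 29 at fbxa genes, 23 of 24 at math genes and 18 of 18 at clec genes.

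Detoxification genes gave a mixed picture. Of 32 cytochrome P450 genes on the arms 14 were bound (43.75%) and of 34 in the centres 17 (50%); on the left arm of V 11 of 23 had a summit. With peaks at or above the median signal the arm share of cytochrome P450 genes was 18.75% (7.21 to 36.4), against 13.2% of all arm genes. Of 24 glutathione S-transferase genes 8 were bound on the arms (33.3%) and of 15 in the centres 10 (66.7%), and their 95% intervals overlap (15.6 to 55.3 and 38.4 to 88.2). UDP-glucuronosyltransferases are mostly centre genes, with 31 of 50 bound there and 4 of 8 on the arms.

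Genes of ribosomal proteins, needed in all tissues, were bound at 11 of 15 on the arms and 35 of 39 in the centres, and none of the 11 arm summits had TGATAA. A ribosomal protein gene was the nearest coding gene for 7 of these 11. Mitochondrial ribosomal proteins of the large subunit (mrpl) were bound at 10 of 15 arm genes and 5 of 15 centre genes, and 1 of their 10 arm summits had the site. For 5 of the 10 the nearest coding gene was an mrpl gene.

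At the other end, chemoreceptor genes, the largest group on the arms, were bound at 22 of 584 (3.77%, interval 2.38 to 5.65), and at 18 of 642 in the centres. Of the 26 arm summits counted to them, 15 had a chemoreceptor gene as the nearest coding gene, and the summit at srz-62 shown above is one of these strong exceptions. No irld gene was bound among 40 on the arms, so that the 95% exact interval of the share reaches 8.81%. The products of irld genes resemble the ligand-binding part of insulin and EGF receptors. Of 33 collagen genes on the arms 3 were bound (9.09%, interval 1.92 to 24.3), and this interval holds the 23.5% of all arm genes. Across the 38 name-defined families with at least 10 genes in both zones, the bound share was higher on the arms in 19, higher in the centres in 16 and equal in 3.

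**Figure D5:**
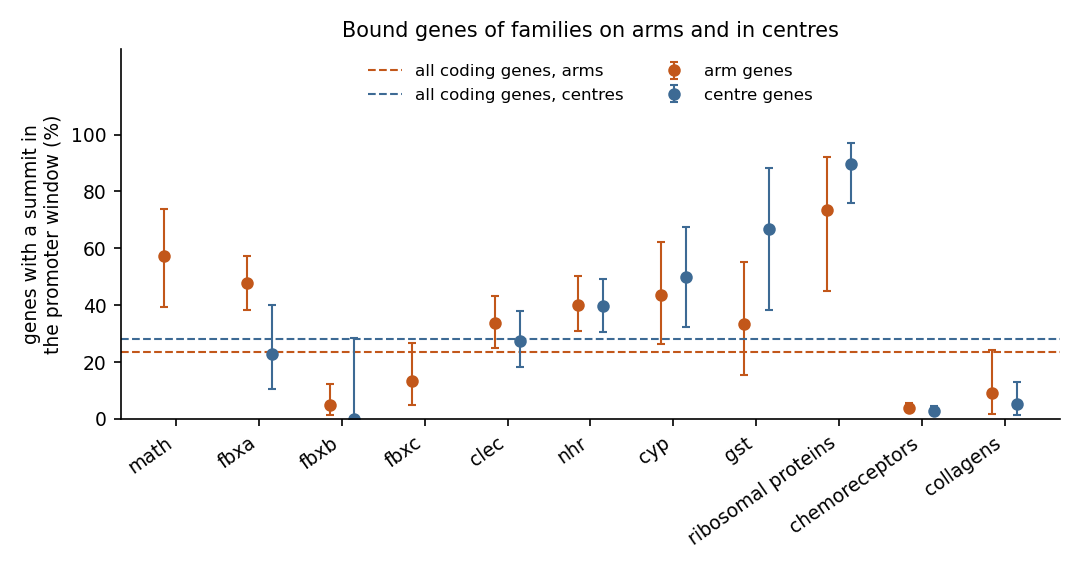
Share of coding genes with a summit in the promoter window (vertical axis, %, with 95% exact intervals) for families on arms and in centres, drawn where a zone holds at least 10 genes; dashed lines give all coding genes of the zone, 23.5% and 28.1%. The math and fbxa genes on arms stand above the line and the fbxb and chemoreceptor genes below it.

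The right arm of IV, which has the lowest density, also holds 11563 piRNA genes, 76.6% of those on the 4 chromosomes, and has the fewest coding genes per Mb of the arms (133). Its 176 summits had a median signal of 211 and TGATAA at 61.9%, and 19.1% of its coding genes were bound. Small RNA genes of this kind are mostly short and closely spaced, and their part in the low density was not tested.

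At the limits of the arms, the summits just inside had signals of 83.2 to 2681 and those just outside 77.7 to 762. The nearest pair lay at the right limit of III, 3.175 kb inside and 0.308 kb outside, with 530 and 86.4. The highest value just inside belongs to clec-78, 11.2 kb from the left limit of IV, so a slightly narrower arm would lose it.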

How the data were processed

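Peaks of 2 biological replicates in 1 group were used. Per the labels, the assay was ChIP-seq on ce11. Per the deposited text files, a control library entered the peak calling; for the aligner, the peak caller and the IDR threshold the sources used here name nothing. The deposited lists give a signal per peak, the authors' value against the control, a −log10 q and a summit offset from the peak start. The −log10 q that the authors deposited was not used to rank.

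Summits were placed in zones on WBcel235, with Ensembl release 115 genes and RefSeq sequence. Promoter windows took precedence over exon, intron and intergenic sequence. Densities were compared by a two-sided exact binomial test and shares by Fisher's exact tests, with Benjamini-Hochberg adjustment over 4 tests and a threshold of 0.05. Gene and family shares have 95% Clopper-Pearson intervals and no test; differences have Newcombe intervals. Of 347 list symbols 343 matched. Named genes were the 10 strongest arm summits, the strongest of each arm and centre, the strongest arm gene of each list, unc-119 and the summits at the limits; other names were chosen after their values were seen. A named item is not reported here. Members and lists were chosen with earlier results of these data known. Alternatives changed arm width, peak set, windows, motif and denominators, and left out each replicate and chromosome. Tables were handled with pandas 2.3.3 and numpy 2.4.6 in Python 3.11.15, tests came from scipy 1.17.1, figures from matplotlib 3.10.9, and the functions were tested on simulated data.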

Additional observations from a re-analysis of the deposited data

How the results depend on the processing

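The lower density of arm summits kept its direction and its side of the threshold under all 14 alternatives, with ratios from 0.598 to 0.814, one of them, per Mb without repeated 31-base words, chosen after seeing the data. The higher TGATAA share on arms kept its direction under all 14 but lost the threshold under 6: the difference was 2.79 points with arms of 5 Mb, 1.89 with 3 equal parts, 3.47 without chromosome II, 0.922 with a 200 bp window and 1.03 with WGATAR, and 2.50 without replicate 1 against 4.365 without replicate 2. The promoter difference, not past the threshold, passed it with 3 equal parts (-4.11) and the 2000 bp window (-2.52), and changed sign without chromosome III (1.18) and in peaks at or above the median signal (1.15). The signal difference, also not past it, ran from -0.127 to 0.171 with 1 replicate left out and was -0.395 without chromosome V. The bound gene share stayed lower on arms, with differences of -2.95 at 3 Mb, -6.95 with 3 equal parts, -1.56 for peaks at or above the median signal and -6.22 with the 2000 bp window. The causes were not tested. Of 6 arm families tried (fbxa, fbxb, math, clec, nhr and cyp), the bound share left its 95% interval only with peaks at or above the median signal, in all but fbxb. Leaving out weaker peaks can only lower a share or keep it, and that of all arm genes was then 13.2%. No paired analysis was possible because both samples belong to 1 group, which leaves no groups of samples to pair; arms were set against the centre of their own chromosome in the report. Depth, which is unknown, limits the weaker peaks, and whether it differs between arms and centres could not be assessed.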

Other observations

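Summits also lay near noncoding genes. Within 200 bp of a tRNA gene's start lay 61 arm summits (2.80%, 95% interval 2.15 to 3.58) and 78 centre summits (2.04%, 1.61 to 2.53). For piRNA genes, which are 365.5 per Mb on the arms and 96.02 per Mb in the centres, the counts were 52 (2.39%) and 43 (1.12%). Pseudogenes, with 32.3 per Mb on the arms and 20.5 in the centres, had 38 arm summits (1.74%) and 22 centre summits (0.574%). The snoRNA genes, with 2.81 per Mb on the arms and 4.20 in the centres, had 15 arm summits (0.688%) and 57 centre summits (1.49%). None of these was tested, and noncoding genes often lie beside coding starts.

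Arm summits stood more alone. When summits within 1 kb of each other were joined, 15% of the arm groups and 20.8% of the centre groups held more than 1 summit, and the largest held 4 and 7. Stretches of over 100 kb without an IDR-passing summit numbered 27 on the arms and 11 in the centres. The longest, 238 kb, lay on the left arm of V, and the pooled list, which includes background, had a longest stretch of 223 kb on the same arm.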
